A study of Mus musculus with 10 samples.

Results

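The chaperonins are the 10 genes that encode the 2 ring-shaped folding machines of the mouse cell. The 8 subunits of the cytosolic CCT complex are encoded by Tcp1, Cct2, Cct3, Cct4, Cct5, Cct6a, Cct7 and Cct8. The mitochondrial pair is Hspd1, which encodes Hsp60, and Hspe1, which encodes its lid Hsp10. Members were taken by gene symbol, a rule that uses no measured value, though the genes were proposed with earlier results of these data known. All 10 were found among 46956 loci with a symbol, and all 10 were among the 12500 loci abundant enough to be tested.

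Gene expression was measured by RNA sequencing of polyadenylated RNA from tumour-associated macrophages. BALB/cJ mice carried tumours of 4T1, a mouse mammary carcinoma cell line, in the mammary fat pad. One group of 5 samples came from mice given JHU083 at 1 mg/kg from day 7 to day 13, and the other group of 5 from mice given PBS as vehicle. The drug JHU083 releases the glutamine antagonist 6-diazo-5-oxo-L-norleucine in the body, where it inhibits enzymes that use glutamine. Tumours were collected on day 14, and live cells that were CD45+, CD11b+ and F4/80+ but CD8-, Ly6C- and Ly6G- were sorted. The comparison asks which transcripts differ in these cells after treatment. The labels do not say whether each sample is 1 mouse or a pool, so the p-values measure only the spread between these samples.

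CCT, also called TRiC, is a double ring in which each ring holds one copy of every subunit, and it closes over newly made proteins and uses ATP to fold them. Actin and tubulin depend on it, and so do several proteins of the cell cycle and of G protein signalling. Hsp60 and Hsp10 do the corresponding work in the mitochondrial matrix, where they fold proteins that have been imported unfolded. In mouse, Hspd1 and Hspe1 lie head to head and are transcribed away from a shared promoter.

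The stretch between their start sites is shown first because the mitochondrial pair shares it. In the RefSeq promoter table (GRCm38.p6) the inner start site of Hspd1 and the start site of Hspe1 enclose 215 bases, chr1:55087933-55088147. The interval holds a run of 4 heat shock units, the short blocks GAA and TTC in alternate orientation that heat shock factor is known to bind. The run begins 126 bases from the Hspd1 start and ends 71 bases before the Hspe1 start. The 30 bases around it, chr1:55088053-55088082 on the plus strand, are printed 5′ to 3′ with the 4 units in capitals. In GENCODE M21 Hspd1 reaches to 55088243, beyond the run, which lies in an annotated untranslated region of an Hspd1 transcript.
Hspd1-Hspe1 site: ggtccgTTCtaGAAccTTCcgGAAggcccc
A run of 4 or more such units was found in 8 of 32851 promoter windows (0.0244%), each window reaching from 250 bases before to 50 bases after a start site. These 8 include the windows of Hspd1 and Hspe1 themselves, which cover the same run. A pair of units in either order (GAANNTTC or TTCNNGAA, both strands, overlapping matches counted) was found in 15.1% of windows.

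No run of more than 2 heat shock units was found in the windows of the 7 CCT genes that had an entry (Cct4 had none). A single pair was found in a window of Cct2, of Cct5 and of Cct6a. The CCAAT box, searched on both strands, was found in the windows of Tcp1, Cct3, Cct6a and Cct7 and not in those of Cct2, Cct5 or Cct8. Of the mitochondrial pair, only the window of the outer Hspd1 start held it, against 37.4% of all windows. The GC box GGGCGG was found in every window of the 9 matched members but that of the Cct5 start at 31601539, against 35.7% of all windows. The E-box CACGTG, which Myc and related factors are known to bind, was found only in the window of the outer Hspd1 start, against 7.15% of all windows. Such matches describe letters in a window and do not show binding. The upstream stretches of Cct3 and Cct7, 2 of the 3 subunits with the largest decreases below, are printed without annotated untranslated bases. Cct3 is chr3:88297000-88297115 and Cct7 is chr6:85451284-85451504, both on the plus strand. Capitals mark CCAAT and GC boxes, which read ATTGG and CCGCCC on the other strand.
Cct3: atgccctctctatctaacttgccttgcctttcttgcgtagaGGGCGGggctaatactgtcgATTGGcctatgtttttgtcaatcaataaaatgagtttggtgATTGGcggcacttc
Cct7: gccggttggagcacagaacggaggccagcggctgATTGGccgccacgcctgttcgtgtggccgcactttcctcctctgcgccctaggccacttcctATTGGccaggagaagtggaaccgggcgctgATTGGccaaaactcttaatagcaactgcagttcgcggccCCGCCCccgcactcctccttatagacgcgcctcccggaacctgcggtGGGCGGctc

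The libraries held 11147870 to 15740700 fragments. Some stood apart from the rest. The ribosomal RNA loci Gm42418 and Rn18s-rs5 had a listed value of 0 in 3 vehicle samples (2, 4 and 5) and 2 JHU083 samples (1 and 3), and held fragments in the other 5. Chi-square per degree of freedom between samples of 1 group was 6.17 to 35.2 within these sets and 48.2 to 114 across them. Without the 2 loci it was 6.17 to 33.8 within and 7.80 to 43.9 across. Values within these sets are given below for the member calls, the summed CCT level, the CCT shares, the Hspe1 to Hspd1 ratio and the correlations. Defining macrophage genes were abundant in all samples. The summed level of the 7 macrophage markers was 4136 to 4549 CPM in vehicle and 5443 to 6059 CPM in JHU083, where CPM is the count scaled to a common library size. Adgre1, Csf1r and Mertk, 3 of the 7, were called higher and 4 were not called, beside 18.4% of all loci called higher. Csf1r had a mean of 1836 CPM in vehicle and 2621 CPM in JHU083 and so weighs heavily in the sum. Tumour epithelial genes were lower after treatment in 7 of 7 tested markers (summed level 296 to 643 CPM in vehicle and 103 to 219 CPM in JHU083). Of 6 fibroblast markers 5 were lower (103 to 224 CPM in vehicle and 25.6 to 113 CPM in JHU083), as was 1 of 3 tested endothelial markers (122 to 210 CPM and 34.4 to 82.6 CPM). Neutrophil markers were lower in 2 of 3 tested (22.3 to 31.4 CPM and 5.32 to 15.7 CPM, with Ly6g at 2 fragments or fewer). Of 2 tested T cell markers, Cd4 was higher (summed level 16.2 to 20.1 CPM and 28.3 to 45.7 CPM), and Cd3d, Cd3e and Cd3g held at most 15 fragments in any sample. Higher were 1 of 1 tested B cell marker (2.58 to 3.77 CPM and 3.47 to 5.14 CPM), 1 of 4 dendritic cell markers (8.07 to 9.75 CPM and 11.1 to 26.1 CPM) and 1 of 2 eosinophil markers (3.21 to 7.39 CPM and 5.22 to 13.0 CPM), beside 18.4% of all loci. No marker of these lists was at 0 in all samples. Of 25 cell cycle genes 22 were lower, with a summed level of 1565 to 1925 CPM in vehicle and 886 to 1072 CPM in JHU083. The counts of lower genes in this paragraph stand beside 18.3% of all loci called lower. The share of fragments from mitochondrially encoded loci was 1.53% to 2.09% in vehicle and 2.14% to 2.44% in JHU083, without overlap. The part of these differences in the results on chaperonins was not tested. In sorted bulk RNA, fewer cells of a type and less RNA per cell cannot be told apart.

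Transcripts of the cytosolic chaperonin were lower after JHU083 in 7 of its 8 subunit genes, and none was higher. The decreases ran from 0.28 to 0.50 on the log2 scale, and Cct4 was the subunit that did not pass the test. The summed level of the 8 genes was 2057 ± 79.5 CPM in vehicle (SD, n = 5) and 1633 ± 163 CPM in JHU083 (SD, n = 5). No JHU083 sample, at 1421 to 1867 CPM, reached the lowest vehicle sample, at 1972 CPM. The mean sum was 2048 and 1749 CPM in the samples listed at 0 at the ribosomal RNA loci, and 2071 and 1555 CPM in the others. The share of mitochondrially encoded fragments, a measure of RNA or cell quality, moved with the groups as given above. For comparison, 18.3% of the 12500 tested loci were lower and 18.4% were higher by the same test, edgeR's quasi-likelihood test with Benjamini-Hochberg adjustment over all tested loci at 0.05. The median log2 fold change was -0.33 over the 8 subunit genes and 0.01 over all tested loci, whose middle range was -0.25 to 0.27. The groups did not overlap for 7 of the 8 genes, and 11.1% of all loci were lower without overlap.

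Cct3, the gamma subunit (chr3:88297116-88321767), showed the largest decrease. Its level was 247.6, 219.2, 213.1, 226.1 and 241.5 CPM in vehicle samples 1 to 5 and 153.7, 144.2, 193.7, 159.7 and 161.2 CPM in JHU083 samples 1 to 5. Every JHU083 sample lay below every vehicle sample, and sample 3 was the highest of the treated ones. The mean fell by 29.2%, a log2 fold change of -0.50 ± 0.08 (SE; edgeR adjusted p = 0.00044).

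Cct6a, the zeta subunit expressed outside the testis (chr5:129786998-129846371), was next. Its level was 216.0, 191.8, 193.9, 182.3 and 184.9 CPM in vehicle and 135.6, 126.0, 166.7, 143.4 and 137.6 CPM in JHU083. The groups did not overlap, and the log2 fold change was -0.45 ± 0.08 (SE; edgeR adjusted p = 0.000828). The locus also lists the small nucleolar RNA Snora15, so its value covers both. Cct7, the eta subunit (chr6:85451514-85468475), was at 279.0, 257.8, 252.6, 264.3 and 295.8 CPM in vehicle and 204.2, 166.7, 237.3, 200.6 and 184.5 CPM in JHU083. Its groups did not overlap either, with a log2 fold change of -0.44 ± 0.09 (SE; edgeR adjusted p = 0.00172).

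Cct5, Tcp1, Cct2 and Cct8 encode the epsilon, alpha, beta and theta subunits. They form the middle of the complex's range, and for each of them the lowest vehicle sample was above the highest JHU083 sample. Cct5 (chr15:31590800-31601804) fell from 325 ± 16.3 to 256 ± 29.5 CPM (SD, n = 5 each), a log2 fold change of -0.34 ± 0.08 (SE; edgeR adjusted p = 0.00497). Tcp1 (chr17:12915701-12925067), in a locus that also lists Gm26130, was at 218 ± 5.01 CPM in vehicle and at 174 ± 13.8 CPM in JHU083 (SD, n = 5 each). Its log2 fold change was -0.33 ± 0.07 (SE; edgeR adjusted p = 0.00211). The gap between groups was narrowest for Cct2 (chr10:117051001-117063814), whose lowest vehicle sample was at 285.6 CPM and whose highest JHU083 sample was at 281.7 CPM. Its log2 fold change was -0.31 ± 0.08 (SE; edgeR adjusted p = 0.00551). Cct8 (chr16:87483326-87495873) fell from 255 ± 9.06 to 210.2 ± 18.2 CPM (SD, n = 5 each), a log2 fold change of -0.28 ± 0.07 (SE; edgeR adjusted p = 0.00844).

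Cct4, the delta subunit (chr11:22990519-23003780), was the exception. Its level was 280.2, 265.2, 254.2, 253.0 and 261.5 CPM in vehicle and 243.2, 212.4, 282.0, 255.8 and 233.3 CPM in JHU083. The groups overlapped, and the highest sample of all was JHU083 sample 3. The log2 fold change was -0.10 ± 0.08 (SE; edgeR adjusted p = 0.33). Without JHU083 sample 3 it was -0.15 (edgeR adjusted p = 0.0777), and without JHU083 sample 2 it was -0.05 (edgeR adjusted p = 0.605). Scaled by library size only, it was -0.18 (edgeR adjusted p = 0.0531). Whether Cct4 differed from the other subunits in its response was not tested.

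**Figure D1:**
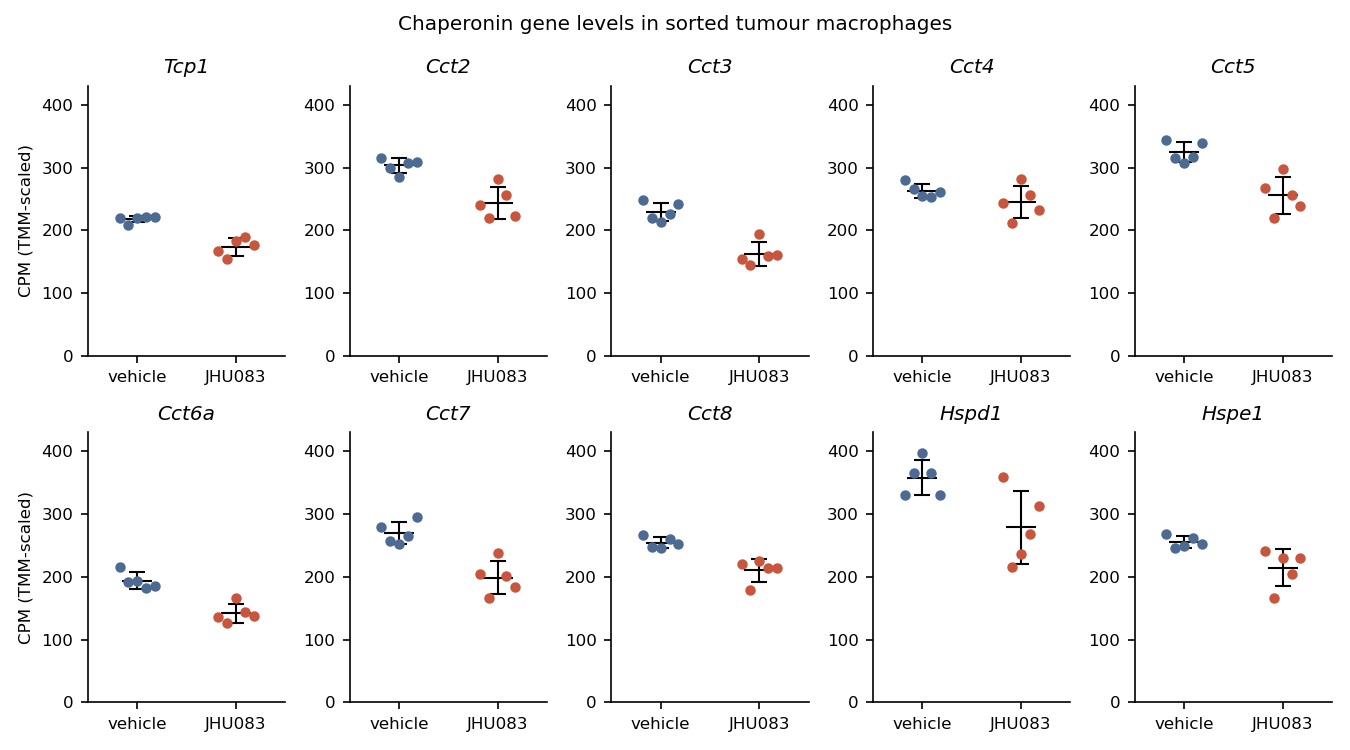
Level of each chaperonin gene in TMM-scaled CPM (vertical axis, linear, from 0) in the 5 vehicle and 5 JHU083 samples. Each point is a sample, and the black bars are mean ± SD. The groups are apart for 7 CCT genes and Hspe1 and overlap for Cct4 and Hspd1.

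The make-up of the CCT transcript pool was followed as the share of each gene in the summed CPM of the 8, which does not depend on library scaling. Cct4 made up 12.8% ± 0.34 of the pool in vehicle and 15.02% ± 0.17 in JHU083 (SD, n = 5 each). Its highest vehicle share was 13.2% and its lowest JHU083 share 14.9%, so the groups did not overlap. Cct3 went the other way, from 11.1% ± 0.29 to 9.95% ± 0.44, and Cct7 from 13.1% ± 0.53 to 12.1% ± 0.45, both without overlap. The CPM shares of Tcp1, Cct2, Cct5, Cct6a and Cct8 overlapped between groups. In shares of summed FPKM, which allow for length, Cct4 and Cct3 again did not overlap, at 10.3% ± 0.28 and 12.6% ± 0.42 for Cct4 and 11.1% ± 0.99 and 9.30% ± 0.52 for Cct3 (vehicle and JHU083). On that scale Cct7 overlapped (10.6% to 12.1% and 10.1% to 11.1%), and Cct6a did not (12.65% to 16.97% and 11.0% to 12.1%). Within the ribosomal RNA sets, the CPM share of Tcp1 went from 10.6% to 10.01% in the samples listed at 0, without overlap, and from 10.6% to 11.1% in the others, with overlap. The shares of Cct5, Cct6a and Cct8 did not overlap in the others, where 2 vehicle samples were set against 3. Shares add up to a fixed total, so a higher share of one subunit lowers the others. Cct4, Cct3 and Cct7 were singled out here after their values were seen, and no test was made.

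**Figure D2:**
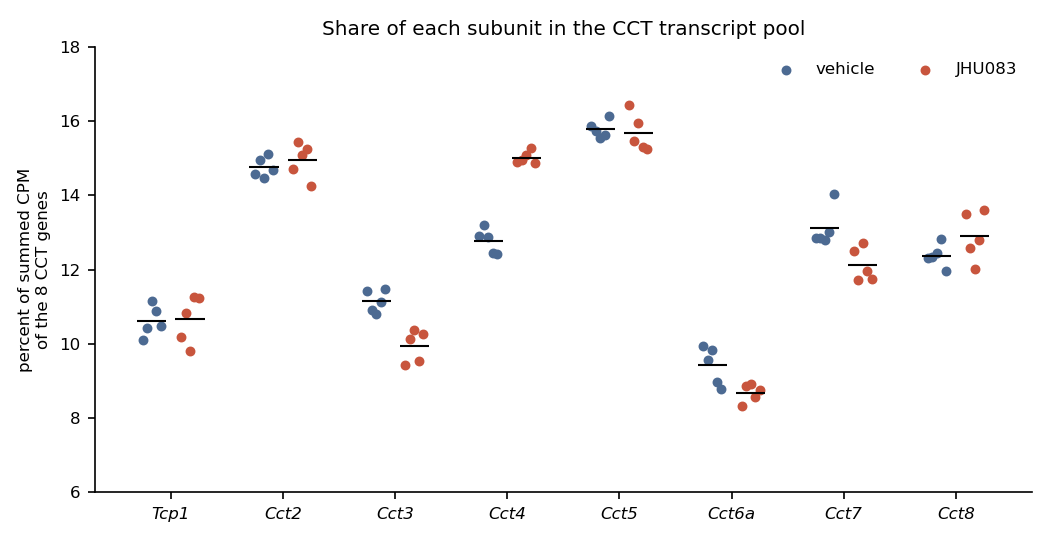
Share of each subunit gene in the summed CPM of the 8 CCT genes (vertical axis, percent, not starting at 0), 1 point per sample. The JHU083 points of Cct4, at 14.9% to 15.3%, lie above the vehicle points, at 12.4% to 13.2%, and those of Cct3 lie below.

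Both genes of the mitochondrial chaperonin were lower after JHU083, with adjusted p-values nearer to the threshold than those of the called CCT genes. Over all loci 18.3% were lower, and 11.1% were lower without overlap. Hspd1 (chr1:55077835-55088243, minus strand) was at 330.6, 365.2, 396.8, 365.8 and 331.1 CPM in vehicle and 359.7, 216.1, 236.0, 268.7 and 313.1 CPM in JHU083. JHU083 sample 1 lay inside the vehicle range while the other 4 lay below it. The log2 fold change was -0.36 ± 0.12 (SE; edgeR adjusted p = 0.0302). Hspe1 (chr1:55088132-55091307, plus strand) was at 268.0, 246.5, 248.6, 262.4 and 252.3 CPM in vehicle and 241.5, 166.9, 230.4, 204.9 and 230.0 CPM in JHU083. Its groups did not overlap, though the gap between 246.5 and 241.5 CPM was small. The log2 fold change was -0.25 ± 0.09 (SE; edgeR adjusted p = 0.0429).

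These calls were less stable than those of the CCT subunits. Hspd1 lost its call without vehicle sample 2, 3 or 4 or JHU083 sample 2 or 4 (edgeR adjusted p up to 0.0715), with log2 fold changes of -0.36 to -0.28 in these fits, and Hspe1 kept it only without JHU083 sample 1 or 3 (edgeR adjusted p up to 0.0933 otherwise, at -0.27 to -0.17). The replicate block ended both calls (Hspd1 at -0.38, edgeR adjusted p = 0.057, and Hspe1 at -0.26, edgeR adjusted p = 0.0558), and the status at the ribosomal RNA loci as a covariate ended that of Hspe1 (-0.24, edgeR adjusted p = 0.0594). The 7 called CCT genes kept their lower calls in each of the 10 fits that left out 1 sample.

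The test did not separate the change of the lid from that of the ring. The ratio of Hspe1 to Hspd1 CPM was 0.718 ± 0.072 in vehicle and 0.783 ± 0.115 in JHU083 (SD, n = 5 each). The difference in mean log2 ratio was 0.12 (exact two-sided permutation test, p = 0.325), which is within the spread between samples. It was 0.17 within the samples listed at 0 at the ribosomal RNA loci and 0.09 within the others, where 3 samples against 2 cannot reach 0.05 (the smallest exact permutation p is 0.2). The 2 genes overlap by 112 bases on opposite strands, and the library kit does not mark strand, so fragments from that stretch cannot be told apart. The same holds for the ends of Tcp1 with Mrpl18 and Acat3, of Cct6a with Psph, of Cct7 with Pradc1 and of Cct8 with Usp16. Pseudogene loci named after members held at most 12 fragments in any sample.

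Within the samples in which the ribosomal RNA loci were listed at 0 (3 vehicle and 2 JHU083), 0 of 8 CCT genes and 0 of 2 mitochondrial genes passed the edgeR test, where 4.61% of loci were called lower. At an unadjusted p under 0.05, 4 of the 8, 0 of the 2 and 13.0% of all loci were lower there. Log2 fold changes there were -0.40 to 0.02 for the CCT genes, with Cct4 as the gene above 0, and -0.25 and -0.10 for Hspd1 and Hspe1. Within the other 5 samples, Cct2, Cct3, Cct5, Cct6a and Cct7 passed and fold changes of the 8 ran from -0.60 to -0.20, where 11.9% of loci were called lower. Hspd1 and Hspe1 were at -0.46 and -0.37 and did not pass there (edgeR adjusted p = 0.0548 and 0.0756), though both were under 0.05 unadjusted, as were 19.0% of all loci in that direction. A fit with an interaction term asked whether the treatment difference itself differed between the 2 sets, and it called 0.0% of 12439 loci, with 356 at an unadjusted p under 0.05. For the members the difference of log2 fold changes was -0.03 to -0.29, and the lowest unadjusted p was 0.0873, for Cct6a (edgeR adjusted p = 0.964).

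**Figure D3:**
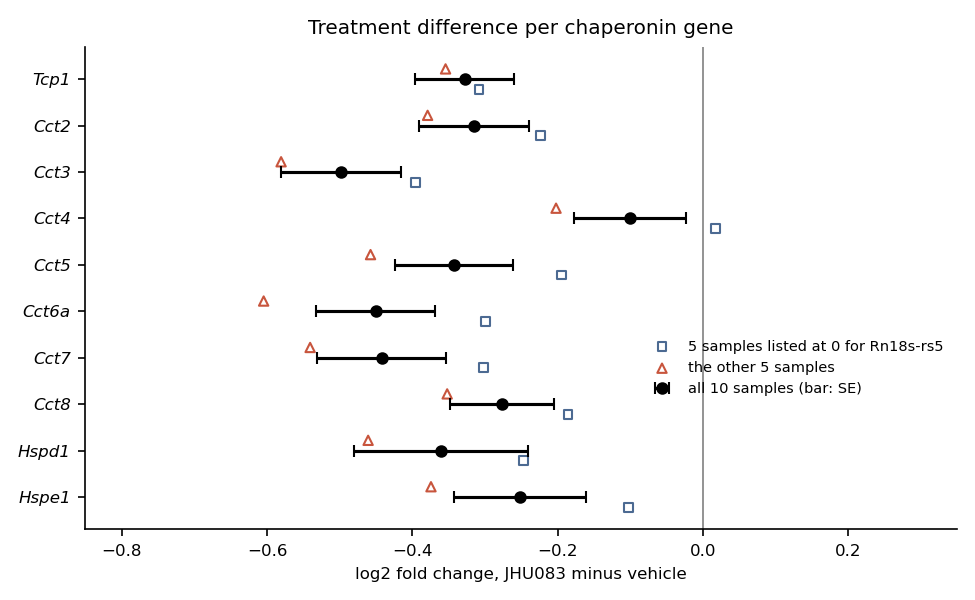
Log2 fold change of JHU083 minus vehicle (horizontal axis) for each chaperonin gene. Black points with SE bars are all 10 samples, and the other marks are the values within the 5 samples listed at 0 at the ribosomal RNA loci and within the other 5. All marks but 1 lie below 0, the exception being Cct4 at 0.02 within the samples listed at 0.

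Levels of different genes can be set side by side only per transcript length, for which the authors' FPKM values were used. Hspe1, a short transcript, was the highest member in both groups, at 412 ± 13.8 FPKM in vehicle and 344 ± 52.4 FPKM in JHU083 (SD, n = 5 each). Its lowest sample was above the highest sample of the next gene in both groups, and so also within either set of samples. Its ring partner Hspd1 was at 150.0 ± 11.5 FPKM in vehicle and 117 ± 24.7 FPKM in JHU083. The CCT subunits, which the complex holds in equal numbers, differed in mean RNA level. In vehicle they ran from Cct4 at 124 ± 5.12 FPKM to Cct5 at 183 ± 8.51 FPKM. In JHU083 they ran from Cct3 at 87.6 ± 9.81 FPKM to Cct5 at 145 ± 15.1 FPKM.

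Between Cct5 and the lowest subunit the vehicle order was Cct6a, Cct2, Hspd1, Tcp1, Cct8, Cct7 and Cct3, and the ranges of each neighbouring pair overlapped. In JHU083 the order was Cct2, Tcp1, Cct8, Cct4, Hspd1, Cct6a and Cct7, again with overlap between neighbours. Cct4 thus stood last among the 10 in vehicle and above Hspd1, Cct6a, Cct7 and Cct3 in JHU083. The position of Cct6a is the least certain. The transcript length that its FPKM values imply varied from 998 to 1297 bases between samples. Its log2 ratio of mean FPKM was -0.68 where the count test gave -0.45. Implied lengths also varied for others, from 1294 to 1614 bases for Tcp1 and from 1555 to 1908 bases for Cct3. For Cct4 the mean implied length was 2183 bases in vehicle and 2000 bases in JHU083. The log2 ratio of mean FPKM was -0.61 for Cct3 and -0.23 for Tcp1, where the count test gave -0.50 and -0.33. The part of these lengths in the FPKM order and shares was not tested.

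The subunits also deviated together within groups. After subtraction of each gene's group mean from log2 CPM, the mean over the 8 CCT genes was 0.20 in JHU083 sample 3 and -0.19 in JHU083 sample 2, and lay between -0.06 and 0.08 in the vehicle samples. Across the 10 samples, the 28 pairs of CCT genes had Pearson r of 0.59 to 0.98, with a median of 0.79. The 16 pairs of a CCT gene with Hspd1 or Hspe1 had r of -0.29 to 0.93, with a median of 0.44. Hspd1 and Hspe1 had r of 0.63. With the mean of each group and ribosomal RNA set subtracted instead, the medians were 0.82 and 0.25, and Hspd1 with Hspe1 had 0.62. These r values describe 10 samples that share library preparation and scaling, and no test was made.

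Hspd1 did not follow the CCT pattern in every treated sample. Hspd1 was 0.39 above its group mean in JHU083 sample 1, where the CCT mean was at its group level. It was -0.22 from its group mean in JHU083 sample 3, where the CCT mean was highest. Hspe1 was 0.18 above its group mean in JHU083 sample 1 and 0.11 above it in JHU083 sample 3. In JHU083 sample 2 all 3 measures were low, with Hspd1 at -0.34 and Hspe1 at -0.35.

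**Figure D4:**
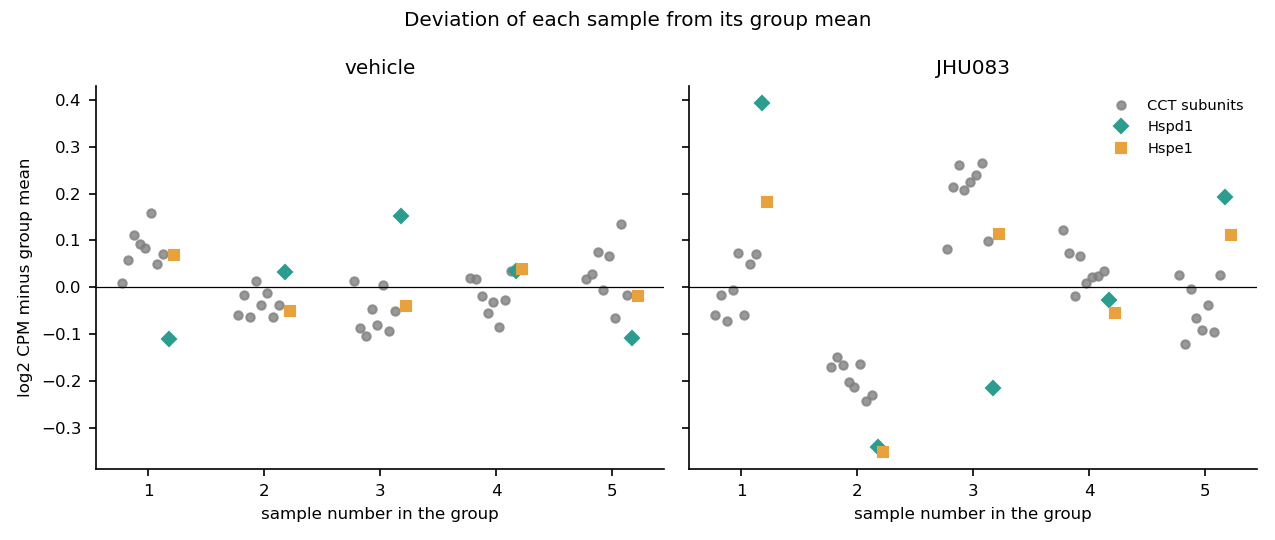
Deviation of each sample from its group mean in log2 CPM (vertical axis), with vehicle and JHU083 samples in separate panels. Each of the 8 CCT genes is a grey point per sample, beside Hspd1 and Hspe1. Treated samples spread more than vehicle samples, from -0.35 to 0.39 for Hspd1, Hspe1 and the CCT mean, which is not drawn.

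The tested loci outside the members whose within-group deviations were most like the CCT mean were Srp9 (r = 0.995), the locus that lists Rpl21 (0.991), Mydgf (0.990), Rps25 (0.989) and Naca (0.987). Srp9 belongs to the signal recognition particle, Rpl21 and Rps25 are ribosomal proteins, and Naca binds nascent chains at the ribosome. None of the 5 passed the test between groups, with log2 fold changes of 0.08, 0.02, -0.30, -0.01 and -0.11 in the same order. Those most like the mean of Hspd1 and Hspe1 were Il10 (0.929), Klrk1 (0.928), Gm8810 (0.925), Adora2b (0.922) and Id2 (0.921). Of these, Klrk1 was lower (-1.41; edgeR adjusted p = 0.000216) and Id2 was higher (0.62; edgeR adjusted p = 0.00164), while Il10 at -0.49, Gm8810 at -0.38 and Adora2b at -0.02 did not pass. These were picked as the highest of all tested loci over 10 samples, so the r values are high by choice.

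The genes that work with the chaperonins were counted beside the 18.3% of all loci called lower and 18.4% called higher. Prefoldin, the complex that hands over unfolded actin and tubulin, has 6 subunit genes, of which 1 was lower and 1 was higher, with a median log2 fold change of -0.21. Pfdn4 fell from 15.4 ± 1.64 to 10.6 ± 1.45 CPM (-0.54 ± 0.12; edgeR adjusted p = 0.00279). Vbp1 rose slightly, by 0.20 ± 0.07 on the log2 scale (edgeR adjusted p = 0.0434). Among 6 tested genes for CCT cofactors and CCT-related proteins, 1 was lower and 1 was higher, with a median of 0.05. The phosducin-like protein Pdcl3 fell from 74.7 ± 5.67 to 55.3 ± 7.13 CPM (-0.43 ± 0.09; edgeR adjusted p = 0.00257), while its relative Pdcl, which assists folding of G protein beta subunits, rose by 0.28 ± 0.09 (edgeR adjusted p = 0.0243). Of 7 tubulin folding cofactors, which act after CCT, only Arl2 was lower (-0.46 ± 0.12; edgeR adjusted p = 0.00988) and none was higher.

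Genes for known CCT clients were lower in 13 of 21 tested, with a median log2 fold change of -0.49, and 1 was higher, beside 18.3% lower and 18.4% higher over all loci. Both actin genes fell. Actb was at 5444 ± 864 CPM in vehicle and 3520 ± 248 CPM in JHU083 (-0.63 ± 0.12; edgeR adjusted p = 0.00134), and Actg1 changed by -0.29 ± 0.10 (edgeR adjusted p = 0.0355). Tubulin genes moved in both directions. Tuba1b, Tuba1c, Tuba4a, Tubb4b, Tubb5 and the gamma tubulin gene Tubg1 fell by 0.45 to 0.94, while Tubb6 rose by 0.24 ± 0.09 (edgeR adjusted p = 0.0439). Tuba1b, for example, was at 542 ± 79.6 CPM in vehicle and 303 ± 52.6 CPM in JHU083. The near-identical tubulin and actin genes may share fragments, so their single values are uncertain.

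Cell cycle clients showed the largest decreases of that list. Plk1, a mitotic kinase, was at 27.9 ± 4.04 CPM in vehicle and 8.69 ± 1.84 CPM in JHU083 (-1.68 ± 0.15; edgeR adjusted p = 4.09e-06). Cdc20, an activator of the anaphase-promoting complex, changed by -1.46 ± 0.16 (edgeR adjusted p = 1.98e-05). Ccne1, which encodes cyclin E, changed by -1.32 ± 0.17 (edgeR adjusted p = 4.73e-05). Fzr1, the other activator of that complex, and the G protein subunit gene Gnb4 also fell, while Gnb1 was at 398 ± 21 and 401 ± 19.1 CPM (edgeR adjusted p = 0.919). The cell cycle marker list, which shares no gene with these, was lower in 22 of 25, beside 18.3% of all loci. Its part in these values was not tested.

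Of 29 genes of the Hsp70 and Hsp90 systems 8 were lower and 1 was higher (18.3% and 18.4% of all loci), with a median of -0.10. Hsp90ab1, the constitutive Hsp90, fell from 2813 ± 58.7 to 2143 ± 193 CPM (-0.39 ± 0.09; edgeR adjusted p = 0.00452), and the Hsp70 helper Dnajb1 fell from 577 ± 30.5 to 370 ± 50 CPM (-0.64 ± 0.09; edgeR adjusted p = 0.000131). The Hsp90 co-chaperone genes Stip1, Ahsa1, Ptges3 and Fkbp4 and the genes Hspb1 and Stub1 were also lower. The increase was in Fkbp5, a glucocorticoid-responsive co-chaperone, from 35.2 ± 1.89 to 76.3 ± 17.7 CPM (1.11 ± 0.13; edgeR adjusted p = 3.46e-05). The constitutive Hsp70 gene Hspa8 was at 2889 ± 81.3 and 2916 ± 319 CPM (edgeR adjusted p = 0.929). The stress-induced Hspa1a was at 5977 ± 365 and 7478 ± 1197 CPM (edgeR adjusted p = 0.0546), in a pair with the near-identical Hspa1b that may share fragments.

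In the mitochondrion, 6 of 16 tested chaperone and protease genes were lower and 1 was higher (18.3% and 18.4% of all loci), with a median of -0.21. Trap1, the mitochondrial Hsp90, fell from 88.4 ± 5.84 to 63.6 ± 5.84 CPM (-0.48 ± 0.08; edgeR adjusted p = 0.000471). The protease genes Lonp1 and Htra2, the disaggregase gene Clpb and the prohibitin genes Phb and Phb2 fell by 0.28 to 0.52. Hscb, a helper in iron-sulfur cluster assembly, rose by 0.44 ± 0.11 (edgeR adjusted p = 0.00703). Hspa9, the matrix Hsp70 that passes proteins to Hsp60, was at 238 ± 3.7 and 230 ± 20.47 CPM (edgeR adjusted p = 0.627).

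The import machinery that supplies Hsp60 with unfolded proteins was lower in 8 of 23 genes and higher in 0 (18.3% and 18.4% of all loci), with a median of -0.20. Its largest decrease was in Tomm40, the pore of the outer membrane, from 80 ± 10.8 to 49.5 ± 8.6 CPM (-0.69 ± 0.12; edgeR adjusted p = 0.000615). Timm13, Timm50, Pmpca, Tomm5, Tomm6, Tomm22 and Timm17a were the others.

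**Figure D5:**
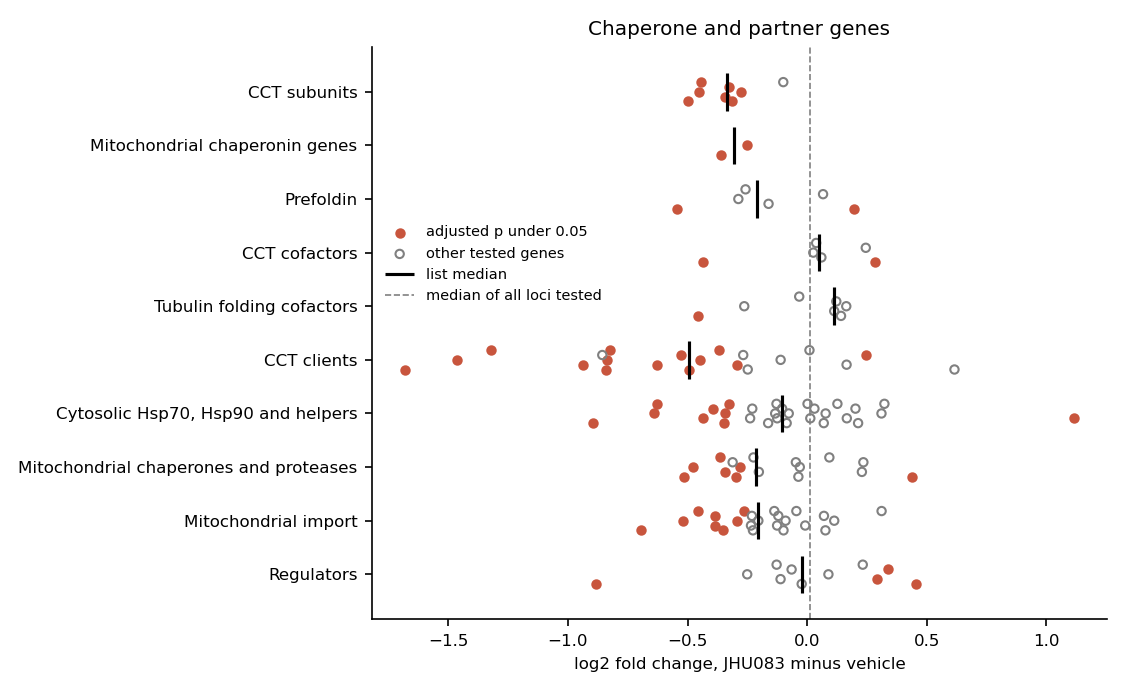
Log2 fold change of JHU083 minus vehicle (horizontal axis) for each tested gene of the chaperonin, partner, client, chaperone, import and regulator lists, 1 row of points per list. The dashed line is the median of all tested loci, 0.01. The CCT points lie between -0.50 and -0.10, and the client points reach -1.68.

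Among 11 tested regulators of chaperone genes, 1 was lower and 3 were higher (18.3% and 18.4% of all loci). Myc, a factor known to drive growth genes, fell from 50.4 ± 10.1 to 27.3 ± 3.83 CPM (-0.88 ± 0.14; edgeR adjusted p = 0.000256). Hsf1, the heat shock factor that binds elements like the one between Hspd1 and Hspe1, was at 20.8 ± 2.39 and 17.5 ± 1.6 CPM (edgeR adjusted p = 0.0715). The genes of the mitochondrial and integrated stress response Atf5, Atf4 and Ddit3 rose by 0.46, 0.29 and 0.34 on the log2 scale (edgeR adjusted p = 0.00238, 0.0109 and 0.0224). These are RNA levels of the regulators and give no measure of their activity.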

How the data were processed

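Polyadenylated RNA of 10 samples (5 vehicle, 5 JHU083) was sequenced as paired ends. TopHat2 2.1.1 and the build GRCm38 are given in the submitters' processing notes; the counting program is not given in the sources used here. Each table holds a raw count and a normalized value per locus, per the file headers. The raw values are not whole, so they were named expected counts as the authors deposited them, apparently fragment counts times a factor per sample. Per sample they are multiples of a step of 0.888 to 1.17, and division by it gave values within 0.1 of a whole number for at least 99.9% of positive values. The rounded fragment counts entered the tests. The normalized column the authors deposited was taken as FPKM from its values. It was used for levels between genes, shares of summed FPKM, log2 ratios of mean FPKM and 1 alternative. That alternative, the log2 ratio of Hspe1 to Hspd1 in FPKM, differed by 0.10 between groups (exact two-sided permutation test, p = 0.413).

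Of 46957 rows, 1 without a symbol was left out (0.00169% of fragments). Loci listing several symbols (1060, with 12.7% of fragments) cover all genes named. Loci passing filterByExpr were TMM-normalised and tested with edgeR 4.0.16 (R 4.3.3) by the quasi-likelihood test without covariates, adjusted over all loci at 0.05. SE is the absolute log2 fold change divided by the square root of F, log2 CPM has a prior count of 2, and all adjusted p-values are from edgeR unless named otherwise. The script was run on simulated counts with the same dispersion at all loci and without the ribosomal RNA sets. That run does not show how the test behaves on data with such sets. Positions are from GENCODE M21 (GRCm38) and promoters from RefSeq (GRCm38.p6). The alternatives tried were limma-voom (limma 3.58.1), DESeq2 1.42.0, other scalings and filters, the deposited values rounded, loci with 1 symbol, the status at Rn18s-rs5 and Gm42418 as a covariate or a subset, a replicate block and each sample left out. The interaction fit and the Hspe1 to Hspd1 ratio within the subsets were chosen after seeing the data.

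The members, the gene lists and the tests were chosen with earlier results of these data known. Genes named are the members, list genes that passed the test, had a list's largest change or define it, and the 5 loci most like each chaperonin.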

Additional observations from a re-analysis of the deposited data

Results flagged for a closer look

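Tcp1 in vehicle sample 2 had a log2 CPM of 7.71, and the other 4 vehicle samples lay between 7.78 and 7.79. Cct8 in JHU083 sample 2 had a log2 CPM of 7.48, and the other 4 JHU083 samples lay between 7.74 and 7.81. Each stood far enough from its group to exceed the critical ratio of 0.71 of gap to range for 5 samples. Over the 22 groups of 5 values examined, about 1.1 such values arise by chance. JHU083 sample 2 was also the lowest treated sample for the CCT mean, Hspd1 and Hspe1.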

How the results depend on the processing

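The count of 7 lower and 0 higher CCT genes was found with DESeq2, limma-voom, the other scalings and filters, the covariate, the replicate block and each sample left out (7 to 7). It was 5 within the samples with fragments at Rn18s-rs5 and 0 within those listed at 0 there, which hold 5 samples each; in the latter Cct4 was at 0.018. With loci of 1 symbol, Tcp1 and Cct6a were left out, so no count of 8 could be had. The count of 2 lower mitochondrial genes was 1 with that status as a covariate, 0 within either set of samples, 0 with the replicate block (Hspd1 -0.38, edgeR adjusted p = 0.057, and Hspe1 -0.26, 0.0558) and 0 to 2 with 1 sample left out; fewer samples enter the subsets, and elsewhere the cause was not tested. The labels' numbers are not shown to pair the samples (r of same-numbered deviations -0.61 to -0.18). The difference in log2 ratio of Hspe1 to Hspd1 was 0.04 to 0.17 with 1 sample left out, 0.17 and 0.09 within the sets, and 0.12 with the replicate block (exact permutation p = 0.5625; 5 pairs cannot go below 0.0625, so this says nothing of stability). Scaled by library size only, 1564 loci were higher and 3141 lower, against 2296 and 2293 with TMM.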
